A study of Homo sapiens with 24 samples.

Results

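Glycolysis was examined through 10 genes, namely SLC2A1, HK2, PFKP, ALDOA, GAPDH, PGK1, ENO1, PKM, LDHA and PDK1, in RNA-seq of U87-T glioblastoma cells that lack DAXX or ATRX. The genes were taken by name as a list of glucose uptake, glycolytic enzymes and the branch point of pyruvate, with no threshold on their measured values. All 10 were found among the 57736 Ensembl genes of the count table, and all 10 had enough reads to be tested in both series of libraries. The 24 libraries were made with a QuantSeq kit, so a gene is counted from reads near the 3′ end of its polyadenylated RNA. They fall into 2 series of 12, named for DAXX and for ATRX, and within a series 4 groups of 3 libraries include WT cells of its own.

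The 4 groups of the DAXX series were untreated WT cells, WT cells given etoposide, untreated DAXX_KO cells and DAXX_KO cells given etoposide, and the ATRX series held the same 4 groups with ATRX_KO cells. Etoposide is a topoisomerase II poison that breaks DNA. Its dose and time for these RNA samples are not given in the sources used here. U87-T cells are U87 glioblastoma cells that carry a TERT transgene, and the study describes its control line as U87-T with an empty Cas9 vector. Each knockout is 1 line grown from a single cell that had acquired features of ALT, the alternative lengthening of telomeres, so a difference between knockout and WT includes whatever else sets that clone apart. The genotype label of every DAXX_KO library reads ATRX KO, and groups were taken from the titles. In untreated DAXX_KO cells, DAXX was at 5.82 ± 1.06 CPM (counts scaled to the library size, SD, n = 3) against 33.9 ± 1.24 in WT, and ATRX was at 385 ± 25.7 against 228 ± 14.2 CPM. In untreated ATRX_KO cells, ATRX was at 80.5 ± 6.07 against 192 ± 4.62 CPM, and DAXX was at 44.5 ± 1.12 against 35.5 ± 2.88 CPM.

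Cells take up glucose through transporters of the SLC2 family and trap it by phosphorylation through hexokinase. Phosphofructokinase commits the sugar to glycolysis, and a chain of enzymes from aldolase to pyruvate kinase then yields ATP, NADH and pyruvate. Lactate dehydrogenase turns pyruvate into lactate and regenerates NAD. The pyruvate dehydrogenase kinases limit the conversion of pyruvate to acetyl-CoA in mitochondria by inhibiting pyruvate dehydrogenase. Glioblastoma cells are known for high glycolytic flux to lactate even in oxygen, and HIF1A and MYC are known activators of many of these genes.

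The promoters of 4 genes are shown because 3 of them (GAPDH, ENO1 and LDHA) were lower in every comparison of knockout with WT, while HK2 was higher in both knockouts with etoposide. Some results of those 3 genes depended on single libraries or on the scaling, as given below. On GRCh37, SLC2A1 and ENO1 lie on chromosome 1, HK2 and PDK1 on chromosome 2, and PFKP, LDHA, GAPDH, PKM, ALDOA and PGK1 on chromosomes 10, 11, 12, 15, 16 and X. Each sequence is the 250 bases before the most upstream transcription start in RefSeq (build GRCh38.p14), read 5′ to 3′ on the strand of the gene. Capitals mark ACGTG or GCGTG on either strand, the core letters of the hypoxia response element, and they also mark the E-box CACGTG that MYC is known to bind, which contains ACGTG.
GAPDH promoter (chr12:6535014-6535263, plus strand): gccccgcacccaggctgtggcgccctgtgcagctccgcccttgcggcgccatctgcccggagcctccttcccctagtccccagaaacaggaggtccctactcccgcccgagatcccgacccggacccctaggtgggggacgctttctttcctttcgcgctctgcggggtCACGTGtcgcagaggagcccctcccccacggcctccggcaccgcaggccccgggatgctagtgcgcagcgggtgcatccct
ENO1 promoter (chr1:8878687-8878936, minus strand): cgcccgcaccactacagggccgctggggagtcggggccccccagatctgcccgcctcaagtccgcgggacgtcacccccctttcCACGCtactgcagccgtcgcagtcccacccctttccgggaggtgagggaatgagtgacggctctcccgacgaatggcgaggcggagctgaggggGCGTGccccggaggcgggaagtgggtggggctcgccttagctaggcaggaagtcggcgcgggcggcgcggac
LDHA promoter (chr11:18394313-18394562, plus strand): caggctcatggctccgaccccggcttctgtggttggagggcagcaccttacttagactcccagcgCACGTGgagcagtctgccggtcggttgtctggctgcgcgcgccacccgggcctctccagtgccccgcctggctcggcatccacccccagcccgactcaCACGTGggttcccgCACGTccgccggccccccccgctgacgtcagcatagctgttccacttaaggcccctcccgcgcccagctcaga
HK2 promoter (chr2:74833877-74834126, plus strand): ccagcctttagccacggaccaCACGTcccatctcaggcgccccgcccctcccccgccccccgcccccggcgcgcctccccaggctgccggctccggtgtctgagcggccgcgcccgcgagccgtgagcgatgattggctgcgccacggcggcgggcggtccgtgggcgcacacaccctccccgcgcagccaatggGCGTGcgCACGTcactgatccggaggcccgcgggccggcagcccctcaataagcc
The LDHA window held 5 matches counted over both strands and 2 copies of CACGTG, GAPDH held 2 matches within 1 CACGTG, ENO1 held 2 matches and HK2 held 3. Of the 10 genes, 6 had at least 1 match, against 43.1% of 27326 RefSeq promoter windows of the same length, and 2 had CACGTG (GAPDH and LDHA), against 6.5%. PGK1 and ALDOA were the other genes with a match, and none was found in the windows of SLC2A1, PFKP, PKM and PDK1. RefSeq lists 4 windows for PFKP, 3 for ALDOA and 2 each for HK2, LDHA and PDK1, and only the most upstream was searched. These are matches of letters in a short window and not measured binding sites.

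Library totals ran from 6928950 to 10410014 counts in the DAXX series and from 10124817 to 13298557 in the ATRX series. The levels below are CPM scaled by TMM within a series. The study describes its replicates in general as biological, but the labels do not tie these libraries to separate cultures, so p-values measure the spread between these libraries, which may be technical. Differences are log2 fold changes with their standard error (SE), and genes were called at a false discovery rate (FDR) of 5% over all genes tested, by edgeR's quasi-likelihood test, with p-values adjusted after Benjamini and Hochberg. VIM and CD44, markers of mesenchymal glioblastoma lines, were present in every library, from 1190 to 5973 and from 345 to 1055 CPM. Of the astroglial markers, S100B and AQP4 had at most 3 counts in all 24 libraries, GFAP in 23, SOX2 in 11 and OLIG2 in 10. NES, of the same list, was present in every library, from 19.2 to 90.1 CPM. The neuron markers SYT1 and SNAP25 were at 10.1 to 36.2 and 2.54 to 20.4 CPM, and RBFOX3 at 0.23 to 3.01 CPM. The immune markers CD3E and AIF1 had at most 3 counts in all 24 libraries, CD14 in 18 and PTPRC in 8. CD14 and PTPRC reached 0.62 and 1.75 CPM. ATRX_KO with etoposide replicate 1 stood furthest from a partner library, with a chi-square of 17.1 per degree of freedom against replicate 3, where the lowest of 24 replicate pairs was 2.16. Calls of the 10 genes that change without that library are given both ways.

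In untreated cells, the loss of DAXX went with lower mRNA of most of these genes. DAXX_KO cells had 8 of the 10 genes lower and 1 higher than WT, namely PGK1, while PDK1 did not pass the test. Of all 15247 genes tested, 26.6% were called lower in this comparison and 26.7% higher. The median log2 difference of the 10 genes was −0.30 and that of all genes tested was 0.02. The libraries of WT and DAXX_KO did not overlap for any of the 10 genes, which held for 60.0% of all genes tested. All 10 genes kept their sign under another scaling, but several calls were lost. With libraries scaled by their totals alone, which moved the median of all genes by 0.18, 3 genes were lower and 2 higher (PGK1 and PDK1), and the log2 differences of HK2, PFKP, ALDOA, GAPDH and LDHA lay between −0.16 and −0.04 without passing. Of all genes called, 50.1% were higher with TMM and 66.2% with library totals alone. These are shares of the polyadenylated RNA of a library, so less RNA per cell and fewer cells that make it cannot be told apart.

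In untreated ATRX_KO cells, 4 of the 10 genes were lower than WT (PFKP, GAPDH, ENO1 and LDHA), 1 was higher (HK2), and 5 did not pass the test. Of 16371 genes tested, 21.0% were called lower and 20.8% higher. The libraries of WT and ATRX_KO did not overlap for 7 of the 10 genes, against 50.9% of all genes tested. The median log2 difference was −0.22 over the 10 genes and 0.02 over all genes. PFKP, GAPDH, ENO1 and LDHA were thus called below WT in both knockouts with TMM scaling. With library totals alone PFKP, GAPDH and LDHA did not pass in DAXX_KO, and GAPDH did not pass in ATRX_KO. The GAPDH call in ATRX_KO was also lost in 8 of 12 fits that left out 1 library. The number of genes called in ATRX_KO fell to 3 without ATRX_KO control replicate 1, and was 6 without ATRX_KO control replicate 3.

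With etoposide in both arms, DAXX_KO had 6 genes lower and 4 higher than WT (HK2, PFKP, PGK1 and PDK1), where 25.2% and 27.9% of all genes were called lower and higher. ATRX_KO had 5 lower and 1 higher, HK2, where 22.9% and 23.0% of all genes were called lower and higher. The libraries of knockout and WT did not overlap for 10 genes in DAXX_KO, against 58.4% of all genes tested, and for 8 genes in ATRX_KO, against 54.8%. The medians over the 10 genes were −0.38 and −0.26, and over all genes tested 0.01 in both. GAPDH, ENO1 and LDHA were lower in all 4 comparisons of knockout with WT, although the GAPDH calls in ATRX_KO were lost when single libraries were left out, as given with its values. The ENO1 call in untreated ATRX_KO was lost without ATRX_KO control replicate 1. With library totals alone GAPDH did not pass in ATRX_KO, and GAPDH and LDHA did not pass in untreated DAXX_KO. HK2 was higher in both knockouts with etoposide.

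**Figure D1:**
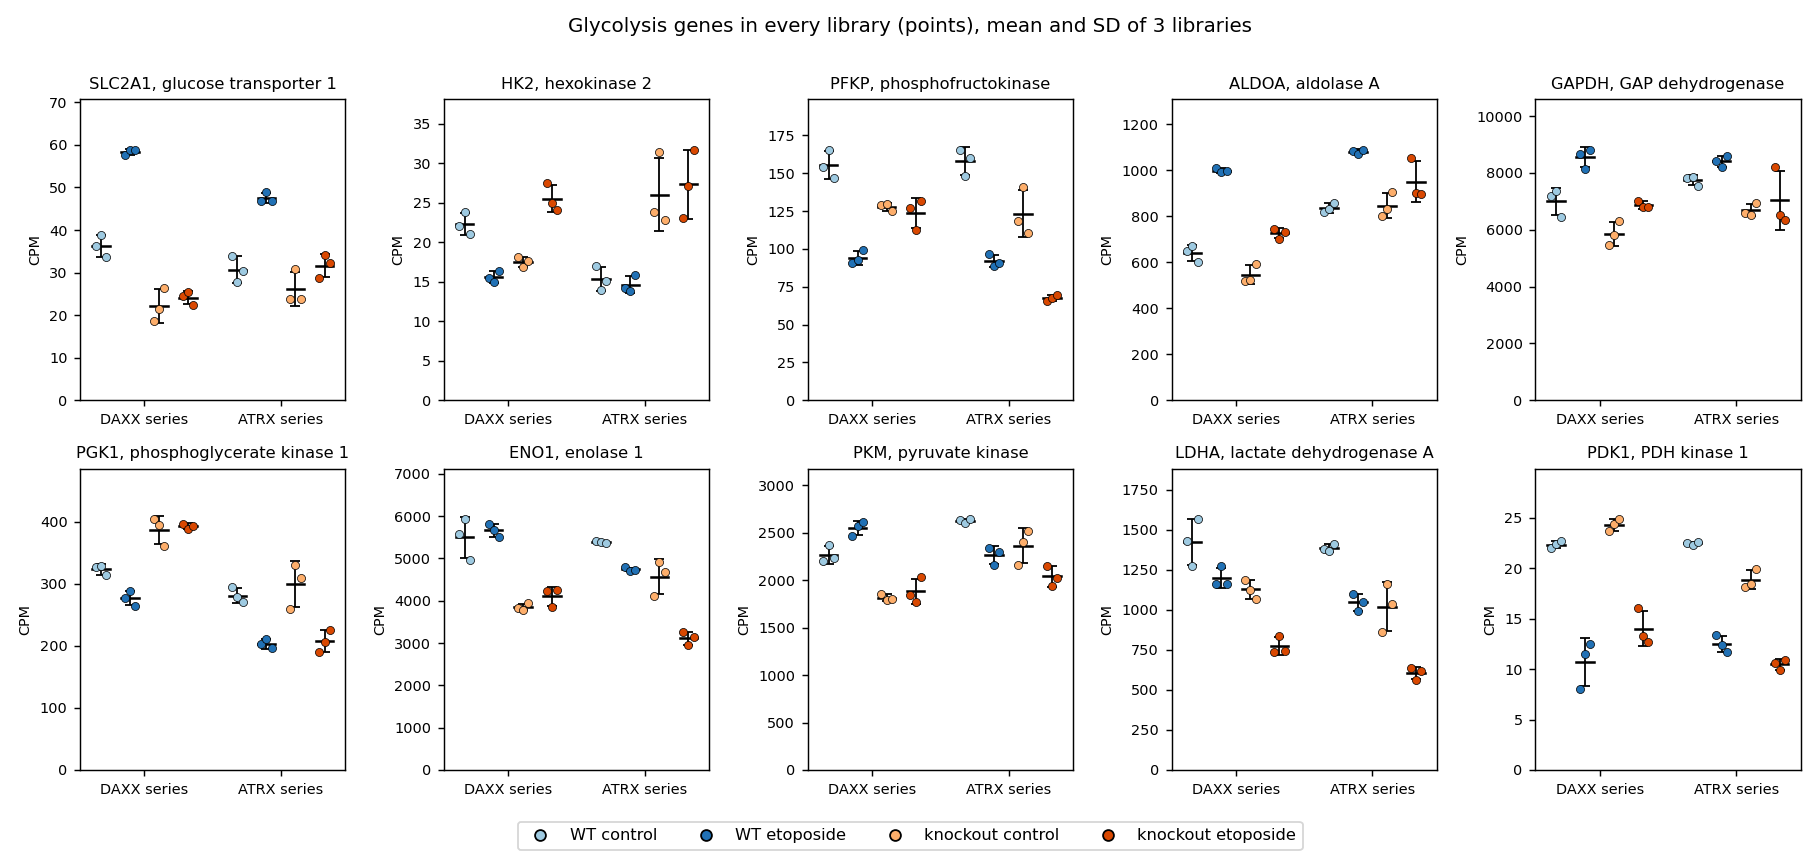
Level of each glycolysis gene in CPM (vertical axis, from 0) in every library (points), with the mean and SD of 3 libraries, for the 4 groups of the DAXX series and of the ATRX series. In LDHA and ENO1 the knockout points lie below the WT points of the same treatment in both series, in SLC2A1 the WT cells rise to 58.4 and 47.5 CPM with etoposide, and in HK2 the order of WT and DAXX_KO turns over between treatments.

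SLC2A1 encodes GLUT1, the basal glucose transporter of most cells. It was at 36.3, 38.9 and 33.7 CPM in the 3 untreated WT libraries of the DAXX series and at 18.6, 21.5 and 26.3 CPM in untreated DAXX_KO. Every DAXX_KO library was below every WT library, and the log2 difference of −0.71 (SE 0.11, adjusted p = 1.82e-05) had the largest size among the 10 genes in this comparison. With etoposide, WT libraries were at 57.6, 58.9 and 58.7 CPM and DAXX_KO libraries at 24.4, 25.4 and 22.5 CPM. The groups were far apart here, and the difference was −1.28 (SE 0.10, adjusted p = 6.1e-09). DAXX_KO cells given etoposide held 41.3% of the WT level.

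The response of SLC2A1 to etoposide itself differed in DAXX_KO. In WT cells SLC2A1 rose by 0.69 on the log2 scale in the DAXX series (SE 0.10, adjusted p = 7.29e-06), whereas in DAXX_KO cells the change was 0.12 (SE 0.11, adjusted p = 0.382) and the groups overlapped. The interaction, which is the response in DAXX_KO minus that in WT, was −0.56 (SE 0.15, adjusted p = 0.0165). It was −0.42 (adjusted p = 0.0569) without DAXX_KO control replicate 3, the library with the highest SLC2A1 level of its group. In the ATRX series the untreated libraries were at 33.9, 27.7 and 30.5 CPM in WT and at 23.9, 30.8 and 23.7 CPM in ATRX_KO, which overlapped (−0.23, adjusted p = 0.112), and the difference passed without ATRX_KO control replicate 2 (−0.37, adjusted p = 0.0159). With etoposide they were at 46.7, 48.8 and 46.9 CPM and at 28.6, 34.1 and 32.3 CPM. Here every ATRX_KO library was lower, by −0.58 (SE 0.11, adjusted p = 3.61e-04). WT cells of this series rose by 0.63 (adjusted p = 1.05e-04), and the rise of 0.28 in ATRX_KO (adjusted p = 0.0498) no longer passed when any of 10 of the 12 libraries was left out, with values of 0.21 to 0.41 over all 12. The ATRX_KO interaction of −0.35 did not pass (adjusted p = 0.151).

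HK2 encodes hexokinase 2, the inducible enzyme that phosphorylates glucose at the mitochondrial surface. Its untreated libraries were at 22.1, 23.8 and 21.1 CPM in WT and at 18.1, 16.9 and 17.7 CPM in DAXX_KO. With etoposide WT libraries were at 15.5, 15.0 and 16.4 CPM and DAXX_KO libraries at 27.5, 25.0 and 24.1 CPM. DAXX_KO was thus the lower group without etoposide and the higher group with it, with no overlap at either. The log2 differences were −0.35 (SE 0.10, adjusted p = 0.00842) and 0.71 (SE 0.10, adjusted p = 1.22e-05). With library totals alone the untreated difference was −0.16 and did not pass (adjusted p = 0.204). Etoposide lowered HK2 in WT by a log2 change of −0.51 (adjusted p = 3.32e-04) and raised it in DAXX_KO by 0.54 (adjusted p = 1.78e-04). The interaction of 1.05 (SE 0.15, adjusted p = 7.14e-05) was past the threshold in each of the 12 fits that left out 1 library, from 1.00 to 1.10.

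HK2 of the ATRX series was higher in the knockout at either treatment. Untreated libraries were at 17.0, 13.9 and 15.1 CPM in WT and at 23.9, 31.4 and 22.9 CPM in ATRX_KO, and those with etoposide were at 14.2, 13.8 and 15.8 CPM and at 23.1, 27.2 and 31.7 CPM. No ATRX_KO library reached down to a WT library. The log2 differences were 0.76 (SE 0.14, adjusted p = 3.86e-04) and 0.91 (SE 0.14, adjusted p = 7.22e-05). The response to etoposide did not pass in WT (−0.07, adjusted p = 0.7) or in ATRX_KO (0.07, adjusted p = 0.689). In untreated cells the effect of DAXX_KO on HK2 differed from that of ATRX_KO by −1.11 (SE 0.18, adjusted p = 2.06e-05) in a model of all 24 libraries, and with etoposide by −0.22 (adjusted p = 0.38).

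PFKP encodes the platelet isoform of phosphofructokinase. It was at 154, 165 and 147 CPM in untreated WT and at 129, 130 and 125 CPM in untreated DAXX_KO, and at 90.4, 92.5 and 99.4 CPM in WT and 127, 113 and 132 CPM in DAXX_KO with etoposide. WT fell by 0.72 on the log2 scale with etoposide (SE 0.07, adjusted p = 6.07e-08), whereas DAXX_KO libraries of the 2 treatments overlapped (−0.05, adjusted p = 0.614). The interaction was 0.68 (SE 0.10, adjusted p = 1.86e-04), and it lay between 0.63 and 0.75 when single libraries were left out. DAXX_KO was below WT by −0.28 in untreated cells (adjusted p = 0.00281) and above it by 0.40 with etoposide (adjusted p = 1.58e-04).

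ATRX_KO cells did lose PFKP with etoposide. Their libraries were at 119, 141 and 111 CPM untreated and at 65.3, 67.5 and 69.7 CPM treated, where WT libraries were at 166, 148 and 160 CPM and at 96.6, 88.6 and 90.9 CPM. All ATRX_KO libraries were below the WT libraries of the same treatment, by −0.36 (adjusted p = 0.00293) and −0.45 (adjusted p = 5.45e-04). The changes with etoposide were −0.78 in WT and −0.87 in ATRX_KO (adjusted p = 6.89e-07 and 4.05e-07), with an interaction of −0.09 (adjusted p = 0.68). With etoposide the DAXX_KO effect on PFKP exceeded the ATRX_KO effect by 0.82 (SE 0.12, adjusted p = 3.25e-06). PFKP lies on chromosome 10 (GRCh37, 3108525 to 3179910), and the 37 tested genes around it, up to 30 on each side, had a median log2 difference of 0.57 in untreated DAXX_KO and 0.65 with etoposide. PFKP was below WT by −0.28 while 64.9% of those neighbours were called higher, and the part of the region in its values was not tested. In untreated DAXX_KO the genes around SLC2A1, HK2, ENO1, PKM and PDK1 had medians of −0.17, −0.12, −0.16, −0.15 and −0.19. Of these neighbours, 36.7%, 40%, 41.7%, 36.7% and 41.7% were called lower, against 26.6% of all genes. Like their regions, SLC2A1, HK2, ENO1 and PKM were lower. The genes around ALDOA, GAPDH and LDHA had medians of 0.17, 0.21 and 0.04. The part of these regions was not tested either.

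ALDOA encodes aldolase A, which splits the hexose into triose phosphates. In the DAXX series it ranged from 600 to 670 CPM in untreated WT, from 520 to 594 in untreated DAXX_KO, from 990 to 1010 in WT with etoposide and from 703 to 745 in DAXX_KO with etoposide. None of these 4 ranges overlapped. DAXX_KO was lower by −0.23 without (adjusted p = 0.00422) and by −0.46 with etoposide (adjusted p = 4.2e-06), and ALDOA rose with etoposide by 0.64 in WT and 0.41 in DAXX_KO (adjusted p = 3.02e-08 and 1.32e-05). In untreated cells of the ATRX series the groups overlapped, at 817 to 859 CPM in WT and 802 to 906 CPM in ATRX_KO (0.02, adjusted p = 0.866). WT rose to 1069 to 1090 CPM with etoposide (0.37, adjusted p = 3.41e-04), while ATRX_KO was at 895 to 1053 CPM and its change of 0.17 did not pass (adjusted p = 0.07), though it did with RLE scaling, library totals alone, a stricter count filter, DESeq2 or all libraries in 1 model (0.18 to 0.24). The difference of −0.18 between ATRX_KO and WT with etoposide (adjusted p = 0.0512) became −0.26 (adjusted p = 0.00355) without ATRX_KO with etoposide replicate 1. Without that library the change in ATRX_KO was 0.08 (adjusted p = 0.311), and the interaction went from −0.20 (adjusted p = 0.208) to −0.28 (adjusted p = 0.0367).

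GAPDH encodes glyceraldehyde phosphate dehydrogenase, which makes the NADH of glycolysis, and it is widely used as a reference gene for RT-qPCR. In the DAXX series its libraries were at 7200, 7347 and 6461 CPM in untreated WT, at 5450, 5801 and 6308 CPM in untreated DAXX_KO, at 8676, 8152 and 8819 CPM in WT with etoposide and at 7013, 6799 and 6790 CPM in DAXX_KO with etoposide. The DAXX_KO libraries were below the WT libraries of the same treatment throughout. The log2 differences were −0.26 (SE 0.06, adjusted p = 0.00105) and −0.32 (SE 0.06, adjusted p = 1.57e-04), and GAPDH rose with etoposide by 0.29 in WT and by 0.23 in DAXX_KO (adjusted p = 3.0e-04 and 0.00251). The rise in DAXX_KO was 0.13 (adjusted p = 0.0962) with library totals alone and did not pass. In untreated cells of the ATRX series, WT was at 7539 to 7873 CPM and ATRX_KO at 6525 to 6934 CPM, a difference of −0.21 (adjusted p = 0.0474) that did not pass when any of 8 of the 12 libraries was left out. With etoposide ATRX_KO was at 8224, 6524 and 6348 CPM against 8420, 8210 and 8596 in WT. Replicate 1 reached into the WT range and the other two lay below it, so the difference was −0.26 (adjusted p = 0.0167) with replicate 1 and −0.38 (adjusted p = 2.66e-05) without it. The call was lost without any WT library with etoposide or without either of the other ATRX_KO libraries with etoposide, with adjusted p up to 0.0989. Library totals alone gave −0.15 untreated (adjusted p = 0.132) and −0.16 with etoposide (adjusted p = 0.104). The 64 processed pseudogenes of GAPDH together held 0.0053% of its counts.

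PGK1 encodes phosphoglycerate kinase 1, the first ATP-forming enzyme of the pathway. It was at 328, 328 and 314 CPM in untreated WT and at 404, 395 and 360 CPM in untreated DAXX_KO, and at 278, 288 and 265 CPM and 397, 389 and 394 CPM with etoposide. PGK1 was above WT in every DAXX_KO library at either treatment. The log2 differences were 0.26 (SE 0.06, adjusted p = 0.00116) and 0.50 (SE 0.06, adjusted p = 9.19e-07). In the ATRX series the knockout overlapped WT, at 259, 330 and 310 against 295, 278 and 270 CPM without etoposide and at 190, 206 and 226 against 202, 212 and 196 CPM with it (0.09 and 0.03, adjusted p = 0.439 and 0.816). Etoposide lowered PGK1 in WT of the DAXX series (−0.22, adjusted p = 0.00388), in WT of the ATRX series (−0.47, adjusted p = 2.35e-04) and in ATRX_KO (−0.53, adjusted p = 1.02e-04), while the change in DAXX_KO was 0.02 (adjusted p = 0.75). The interaction in the DAXX series was 0.25 and did not pass (adjusted p = 0.0615), though it did with the DESeq2 Wald test (0.26, adjusted p = 0.0299). With etoposide the DAXX_KO effect on PGK1 exceeded the ATRX_KO effect by 0.46 (SE 0.11, adjusted p = 0.00169).

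The annotated span of PGK1 lies on chromosome X (GRCh37, 77166236 to 77384792), and the gap between that span and ATRX is 125 kb. The distance of the RefSeq start of PGK1 from ATRX was not measured. The 60 tested genes around PGK1 had a median log2 difference of 0.40 in untreated DAXX_KO, with 51.7% called higher, and of 0.34 with etoposide. The PGK1 difference of 0.26 in untreated cells lay below that median, and the part of the region in its values was not tested. ATP7A overlaps the annotated PGK1 gene on the same strand and held counts equal to 4.8% of those of PGK1.

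ENO1 encodes enolase 1, which makes phosphoenolpyruvate. It was at 5585, 5922 and 4972 CPM in untreated WT and at 3834, 3785 and 3936 CPM in untreated DAXX_KO, and with etoposide at 5809, 5679 and 5500 CPM and at 4222, 3850 and 4247 CPM. The DAXX_KO libraries lay well below WT at both treatments and the treatments did not separate within a genotype. The log2 differences of DAXX_KO were −0.51 (SE 0.06, adjusted p = 6.34e-07) and −0.46 (SE 0.06, adjusted p = 2.34e-06), and the changes with etoposide were 0.05 in WT and 0.09 in DAXX_KO (adjusted p = 0.536 and 0.199).

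ENO1 of the ATRX series fell with etoposide, and further in the knockout. Untreated libraries were at 5413, 5376 and 5375 CPM in WT and at 4100, 4916 and 4689 CPM in ATRX_KO, and treated libraries were at 4789, 4710 and 4724 CPM and at 3248, 2945 and 3140 CPM. The ATRX_KO libraries with etoposide were the lowest of the series. ATRX_KO was below WT by −0.24 untreated (SE 0.07, adjusted p = 0.0115), which was −0.16 (adjusted p = 0.0802) without ATRX_KO control replicate 1, and by −0.61 with etoposide (SE 0.07, adjusted p = 2.32e-06). Etoposide changed ENO1 by −0.18 in WT (adjusted p = 0.0316) and by −0.55 in ATRX_KO (adjusted p = 5.35e-06). The WT call was lost when any untreated WT library, or WT with etoposide replicate 2 or 3, was left out, with values of −0.18 to −0.20. It was also lost under a filter of at least 10 counts in every library (−0.12, adjusted p = 0.19) and with library totals alone (−0.15, adjusted p = 0.0574). The interaction of −0.37 (SE 0.10, adjusted p = 0.0182) did not pass without any of the 3 WT libraries with etoposide, where it was −0.34 to −0.35 with adjusted p of 0.0574 to 0.0686.

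PKM encodes the muscle-type pyruvate kinases, which make pyruvate, and 3′ reads do not separate its PKM1 and PKM2 splice forms. In the DAXX series it ranged from 2198 to 2373 CPM in untreated WT and from 1794 to 1857 CPM in untreated DAXX_KO, and from 2470 to 2617 CPM and 1776 to 2031 CPM with etoposide. DAXX_KO libraries were below WT at both treatments, by −0.32 (adjusted p = 8.36e-05) and −0.44 (adjusted p = 2.31e-06). In the ATRX series WT ranged from 2600 to 2642 CPM and ATRX_KO from 2162 to 2522 CPM untreated, and from 2158 to 2338 CPM and 1945 to 2155 CPM with etoposide. Each ATRX_KO library was below each WT library of its treatment, yet neither difference passed the test (−0.15 at both, adjusted p = 0.0935 and 0.0904). Without ATRX_KO control replicate 3 the untreated difference was −0.20 (adjusted p = 0.0472), and without ATRX_KO with etoposide replicate 1 the treated difference was −0.19 (adjusted p = 0.0342). Etoposide raised PKM by 0.17 in WT of the DAXX series (adjusted p = 0.0126) and lowered it by a log2 change of −0.21 in both WT and ATRX_KO of the ATRX series (adjusted p = 0.0151 and 0.0196). The call in WT of the DAXX series was lost without WT control replicate 1 or WT with etoposide replicate 3 (0.15 to 0.16), that in WT of the ATRX series without WT with etoposide replicate 2 (−0.20, adjusted p = 0.0542), and that in ATRX_KO without ATRX_KO control replicate 3 or ATRX_KO with etoposide replicate 2 (−0.17 and −0.18). Both calls in the ATRX series were lost with at least 10 counts in every library (−0.14 in WT and −0.15 in ATRX_KO), and that in ATRX_KO also with library totals alone (−0.14).

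LDHA encodes lactate dehydrogenase A, the isoform that favours lactate. It was at 1428, 1276 and 1565 CPM in untreated WT and at 1186, 1126 and 1071 CPM in untreated DAXX_KO, and with etoposide at 1162, 1271 and 1162 CPM and at 738, 838 and 741 CPM. In the ATRX series it was at 1377, 1365 and 1413 CPM in WT and at 861, 1162 and 1038 CPM in ATRX_KO, and with etoposide at 1100, 991 and 1050 CPM and at 636, 563 and 620 CPM. In both series the untreated WT group had the highest mean and the knockout with etoposide the lowest, and no knockout library overlapped WT libraries of its treatment. The log2 differences of knockout from WT were −0.34 (SE 0.07, adjusted p = 6.91e-04) and −0.63 (SE 0.07, adjusted p = 6.33e-07) for DAXX_KO without and with etoposide, and −0.44 (SE 0.09, adjusted p = 8.81e-04) and −0.79 (SE 0.09, adjusted p = 2.45e-06) for ATRX_KO.

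Etoposide lowered LDHA in all 4 cell groups. The log2 changes were −0.25 and −0.40 in WT of the DAXX and ATRX series (adjusted p = 0.00677 and 0.00103), and −0.54 and −0.75 in DAXX_KO and ATRX_KO (adjusted p = 3.49e-06 and 3.42e-06). The interactions of −0.30 and −0.35 did not pass (adjusted p = 0.0614 and 0.0783). They did so without WT control replicate 3, DAXX_KO control replicate 3 or DAXX_KO with etoposide replicate 2 in the DAXX series (−0.34 to −0.37) and without ATRX_KO control replicate 1 in the ATRX series (−0.46, adjusted p = 0.0115). With no filter on low counts both passed (−0.29 and −0.34, adjusted p = 0.0204 and 0.0374). The interaction in the DAXX series also passed with at least 10 counts in every library (−0.33, adjusted p = 0.0301) and with library totals alone (−0.41, adjusted p = 0.0113). The effects of DAXX_KO and ATRX_KO on LDHA differed by 0.11 untreated and 0.13 with etoposide, which did not pass (adjusted p = 0.546 and 0.437).

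PDK1 encodes a pyruvate dehydrogenase kinase. It was at 22.0, 22.4 and 22.7 CPM in untreated WT and at 8.01, 11.5 and 12.5 CPM in WT with etoposide, and DAXX_KO libraries were at 23.7, 24.4 and 24.9 CPM and at 16.0, 13.3 and 12.7 CPM. The ATRX series held 22.5, 22.3 and 22.6 CPM in untreated WT and 13.4, 12.4 and 11.7 CPM in WT with etoposide, and ATRX_KO libraries were at 18.2, 18.5 and 19.9 CPM and at 10.7, 9.88 and 10.9 CPM. Treated libraries were below untreated libraries in all 4 cell groups. The log2 changes with etoposide were −1.06 (SE 0.14, adjusted p = 1.99e-06) and −0.84 (SE 0.11, adjusted p = 2.85e-06) in the WT groups, −0.79 (SE 0.13, adjusted p = 4.55e-05) in DAXX_KO and −0.85 (SE 0.11, adjusted p = 5.34e-06) in ATRX_KO. The difference of DAXX_KO from WT was 0.12 untreated (adjusted p = 0.445) and 0.39 with etoposide (adjusted p = 0.0314). The latter rested on few libraries, since it was 0.22 (adjusted p = 0.198) without WT with etoposide replicate 1 and 0.29 (adjusted p = 0.135) without DAXX_KO with etoposide replicate 1. It also did not pass with no filter on low counts, DESeq2 or only the compared groups (0.37 to 0.38). ATRX_KO was lower by −0.25 and −0.26, which did not pass (adjusted p = 0.0563 and 0.0726). The antisense gene PDK1-AS1 held counts equal to 2.6% of those of PDK1, and whether the counting used strand is not stated.

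**Figure D2:**
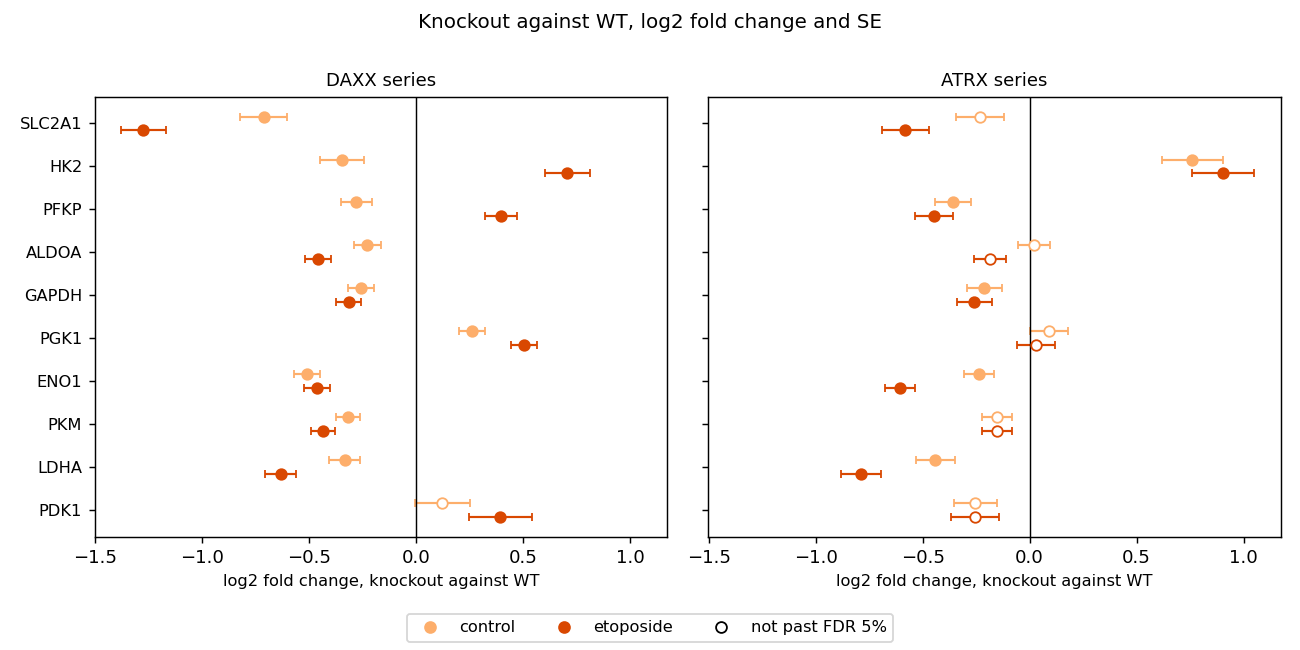
Log2 difference of knockout from WT for each glycolysis gene (points, with SE bars), untreated and with etoposide, for DAXX_KO and ATRX_KO, where filled points passed an FDR of 5%. GAPDH, ENO1 and LDHA lie below 0 in all 4 comparisons, HK2 changes side in DAXX_KO (−0.35 and 0.71) and lies above 0 in ATRX_KO (0.76 and 0.91), and PGK1 lies above WT in DAXX_KO (0.26 and 0.50).

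As a response to etoposide, the 10 genes did not move as a block. Genes are counted here as rising or falling when they passed an FDR of 5%. In WT of the DAXX series 4 genes rose (SLC2A1, ALDOA, GAPDH and PKM) and 5 fell (HK2, PFKP, PGK1, LDHA and PDK1), where 29.6% of all genes rose and 30.6% fell. In WT of the ATRX series 2 rose (SLC2A1 and ALDOA) and 6 fell (PFKP, PGK1, ENO1, PKM, LDHA and PDK1), where 31.7% of all genes rose and 29.8% fell. DAXX_KO had 3 genes up (HK2, ALDOA and GAPDH) and 2 down (LDHA and PDK1), where 26.8% of all genes rose and 27.8% fell. ATRX_KO had 1 up (SLC2A1) and 6 down (PFKP, PGK1, ENO1, PKM, LDHA and PDK1), where 24.3% of all genes rose and 25.2% fell. Treated and untreated libraries did not overlap for 9 of the 10 genes in WT of the DAXX series (66.8% of all genes tested), 9 in WT of the ATRX series (68.7%), 5 in DAXX_KO (58.4%) and 6 in ATRX_KO (53.7%). LDHA and PDK1 fell in all 4 cell groups, and no gene rose in all 4.

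The knockout and the treatment interacted for 3 genes in the DAXX series (HK2 and PFKP higher and SLC2A1 lower than the sum of the separate effects) and for 1 gene in the ATRX series (ENO1 lower). Of all genes, 8.38% passed with an interaction above 0 and 5.79% below 0 in the DAXX series, and 8.36% above and 7.64% below in the ATRX series. Library totals alone gave 6 interactions in the DAXX series, 2 above and 4 below 0, since ALDOA (−0.34), PKM (−0.23) and LDHA (−0.41) passed as well. That scaling moved the median interaction of all genes by −0.11 and the share of calls above 0 from 59.1% to 36.8%. These comparisons share their untreated and WT libraries, so their results are not independent of each other.

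**Figure D3:**
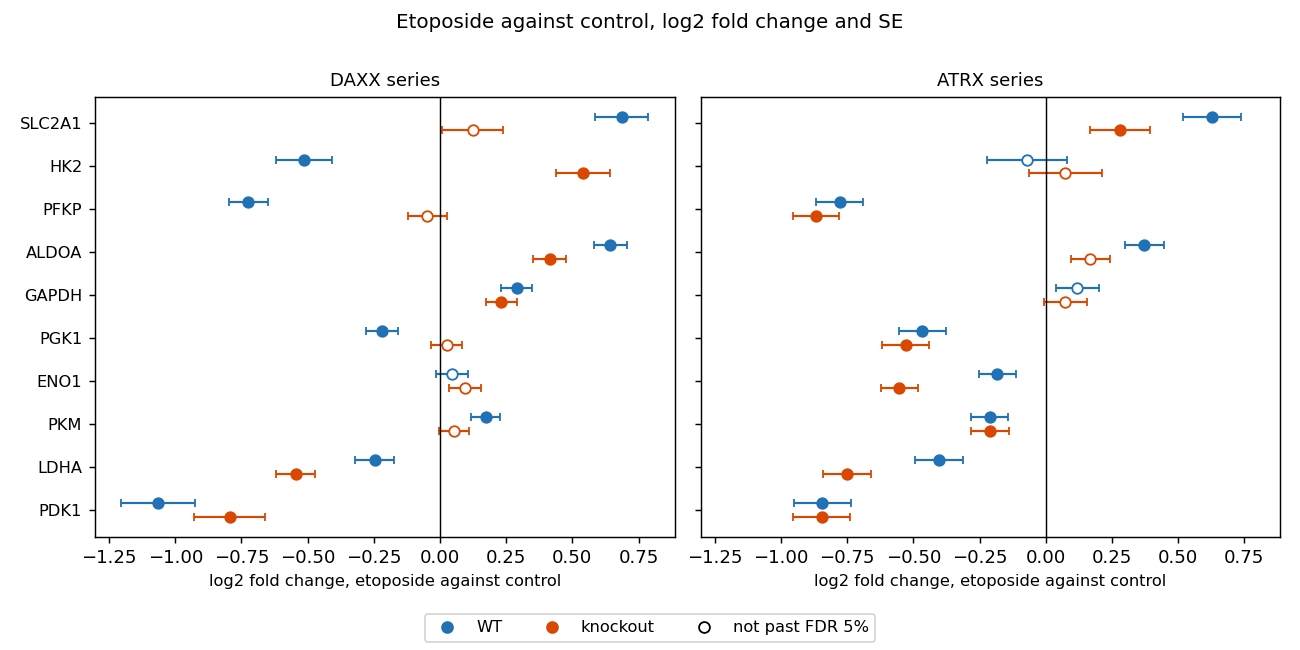
Log2 change with etoposide (horizontal axis, points with SE bars) of each glycolysis gene in WT and knockout cells of the DAXX series and the ATRX series, where open points did not pass an FDR of 5%. WT and DAXX_KO points lie on opposite sides of 0 for HK2 (−0.51 and 0.54) and are apart for PFKP (−0.72 and −0.05) and SLC2A1 (0.69 and 0.12), while LDHA and PDK1 lie below 0 in all 4 cell groups.

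The effects of the 2 knockouts were compared directly in a model of all 24 libraries with 16674 genes tested. In untreated cells the DAXX_KO effect was called below the ATRX_KO effect for 4 genes, HK2 (−1.11), SLC2A1 (−0.48), ENO1 (−0.27) and ALDOA (−0.25). Of all genes, 17.2% were called below and 17.0% above. With library totals alone 1 gene was below (HK2) and 2 were above, PGK1 (0.29, adjusted p = 0.0328) and PDK1 (0.50, adjusted p = 0.0159), while SLC2A1 (−0.35), ENO1 (−0.15) and ALDOA (−0.12) did not pass (adjusted p = 0.103, 0.212 and 0.341). Only HK2 (adjusted p = 2.06e-05) kept its call in every fit that left out 1 library. The number of genes fell to 1 without WT control replicate 2 or DAXX_KO control replicate 2 of the DAXX series, and to 2 without DAXX_KO control replicate 1, or WT control replicate 2 or ATRX_KO control replicate 2 of the ATRX series. With etoposide the DAXX_KO effect was called below for SLC2A1 (−0.71), PKM (−0.31) and ALDOA (−0.29) and above for PFKP (0.82), PDK1 (0.63) and PGK1 (0.46). Here 16.8% of all genes were called below and 17.7% above. The ALDOA value was −0.22 (adjusted p = 0.0577) without ATRX_KO with etoposide replicate 1. The remaining genes did not pass, and GAPDH differed by −0.04 (SE 0.10) untreated and −0.08 (SE 0.10) with etoposide.

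Summed over the 10 genes, the share of all counts was 1.66% ± 0.107 (SD, n = 3) in untreated WT and 1.49% ± 0.054 in untreated DAXX_KO, and 1.86% ± 0.0255 and 1.51% ± 0.0261 with etoposide. In the ATRX series it was 1.78% ± 0.0205 in WT and 1.60% ± 0.0747 in ATRX_KO, and 1.76% ± 0.0386 and 1.48% ± 0.127 with etoposide. The mean share was thus smaller in the knockout group in each of the 4 settings, and GAPDH and ENO1 contributed the most counts to the sum. In untreated cells of the DAXX series the libraries overlapped, from 1.54% to 1.73% in WT and from 1.44% to 1.55% in DAXX_KO. They did not overlap in the other settings, and the shares were not tested.

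Across the 24 libraries, some genes followed each other more closely than others. PFKP and PDK1 had a Pearson r of 0.842 on log2 CPM, ENO1 and LDHA of 0.832, and SLC2A1 and GAPDH of 0.787, while ALDOA ran opposite to PGK1 (−0.802) and PDK1 (−0.764). HK2 had no r above 0.253 with another of the 10 genes, and its lowest were −0.533 with LDHA and −0.525 with GAPDH. Among 6887 other genes with a mean of at least 20 CPM, the closest pattern was that of TUBB4B for PDK1 (r = 0.963), UPF1 for ALDOA (0.957), DBI for PGK1 (0.954), VOPP1 for PFKP (0.948), DCAF13 for SLC2A1 (0.934), CD81 for ENO1 (0.929), ANXA6 for PKM (0.903) and SRRM2 for HK2 (0.884). These r describe 24 libraries that share 2 series, treatments and genotypes.

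Other steps of glucose metabolism were followed in related lists, whose counts in untreated cells stand against 26.7% of all genes higher and 26.6% lower in DAXX_KO and 20.8% and 21.0% in ATRX_KO. The other glycolytic enzymes had 11 tested genes, of which 4 were higher and 4 lower in untreated DAXX_KO, with a median log2 difference of −0.29, and 1 higher and 3 lower in untreated ATRX_KO, with a median of −0.19. HK1, the constitutive hexokinase, was at 179 ± 9.81 CPM in untreated WT of the DAXX series, 214 ± 6.59 in DAXX_KO, and 80.6 ± 2.72 and 118 ± 15.4 with etoposide. It was above WT in DAXX_KO (0.26, adjusted p = 0.00944) and in ATRX_KO (0.54, adjusted p = 9.73e-04), and it fell with etoposide in all 4 cell groups, with log2 changes of −1.15 and −1.23 in WT, −0.86 in DAXX_KO and −0.91 in ATRX_KO. PFKL, the liver isoform of phosphofructokinase, was higher in DAXX_KO (0.61) and lower in ATRX_KO (−0.49). PGAM1 (phosphoglycerate mutase) was lower in DAXX_KO (−0.52) and LDHB, which favours pyruvate, was lower in both (−0.36 and −0.41).

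Of the 7 transporters of glucose, lactate and pyruvate, 4 were higher and 3 lower in untreated DAXX_KO (26.7% and 26.6% of all genes), and 3 higher and 2 lower in untreated ATRX_KO (20.8% and 21.0%). SLC16A3 encodes MCT4, the lactate exporter of glycolytic cells. It was at 98.0 ± 9.19 CPM in untreated WT and 36.1 ± 2.21 in DAXX_KO, and at 143 ± 18.6 and 41.2 ± 3.78 CPM in WT and ATRX_KO of the other series. The log2 differences were −1.44 (SE 0.09, adjusted p = 1.4e-10) and −1.79 (SE 0.11, adjusted p = 1.24e-09), larger in size than those of all 10 glycolysis genes in the same comparisons. With etoposide WT cells lost SLC16A3 (−0.94 and −1.15), and the changes in DAXX_KO and ATRX_KO were 0.21 and −0.22 (adjusted p = 0.0733 and 0.117), with interactions of 1.15 (adjusted p = 7.85e-06) and 0.94 (adjusted p = 7.51e-04). SLC2A3, the high-affinity neuronal glucose transporter GLUT3, was higher in both knockouts (0.61 and 0.84), as was MPC1 of the mitochondrial pyruvate carrier (0.93 and 0.43). SLC2A1 and SLC2A3 thus lay on opposite sides of WT in untreated DAXX_KO.

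Among the 11 tested regulators of flux, 4 were higher and 1 lower in untreated DAXX_KO (26.7% and 26.6% of all genes) and 3 higher and 2 lower in untreated ATRX_KO (20.8% and 21.0%). TIGAR, a p53 target that lowers the sugar bisphosphate that activates phosphofructokinase, rose with etoposide by 2.12 and 2.52 on the log2 scale in the WT groups while the rises in DAXX_KO and ATRX_KO were 1.52 and 1.65. The TIGAR interactions were −0.60 (adjusted p = 0.0636) and −0.87 (adjusted p = 0.0128) for the respective knockouts. PFKFB2 rose by 2.01 and 2.39 in WT, and PFKFB3, which makes that activator, was higher in untreated DAXX_KO (0.31) and lower in untreated ATRX_KO (−0.53). PDP1, the phosphatase that reactivates pyruvate dehydrogenase, was higher in both (0.73 and 1.36). The p53-linked metabolic genes had 6 of 7 tested members up with etoposide in WT of the DAXX series (29.6% of all genes) and 7 of 7 in WT of the ATRX series (31.7%), among them RRAD (5.60 and 5.96) and SESN2 (3.21 and 3.56), and TIGAR stands in both lists. In DAXX_KO 4 of the 7 were up and 1 down with etoposide (26.8% and 27.8% of all genes), and in ATRX_KO 5 were up and 1 down (24.3% and 25.2%). Their interactions passed below 0 for 4 genes in DAXX_KO (5.79% of all genes) and for 5 in ATRX_KO (7.64%). In untreated cells, 4 of the 7 were already higher than WT and 0 lower in DAXX_KO (26.7% and 26.6% of all genes). In untreated ATRX_KO, 5 were higher and 0 lower (20.8% and 21.0%). The median log2 differences of this list in untreated cells were 0.89 and 0.64.

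Among the 8 transcriptional regulators, 4 were higher and 1 lower in untreated DAXX_KO (26.7% and 26.6% of all genes) and 3 higher in untreated ATRX_KO (20.8%). HIF1A was higher in untreated DAXX_KO (0.47) and at 0.13 in ATRX_KO without passing. EPAS1, a relative of HIF1A, was higher in both (0.89 and 1.81), and so was EGLN1 (1.05 and 0.49), a prolyl hydroxylase that marks HIF1A for decay. MYC did not pass in either knockout (−0.21 and 0.27), but it fell with etoposide by log2 changes of −2.58 and −2.25 in the WT groups, −2.55 in DAXX_KO and −1.67 in ATRX_KO. Hypoxia-inducible genes outside glycolysis had 4 higher and 4 lower of 14 tested in untreated DAXX_KO, near the shares of all genes (26.7% and 26.6%), and 7 higher and 2 lower of 15 in untreated ATRX_KO (20.8% and 21.0% of all genes). CA9 was lower (−0.92 and −1.58) and CA12 and VEGFA were higher (2.17 and 1.87 for CA12, 0.91 and 1.16 for VEGFA) in both knockouts. In the pentose phosphate and serine branches, 3 of 10 genes were higher and 4 lower in untreated DAXX_KO (26.7% and 26.6% of all genes) and 5 higher and 1 lower in untreated ATRX_KO (20.8% and 21.0%). PSAT1 of serine synthesis was lower in both (−0.85 and −0.84).

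**Figure D4:**
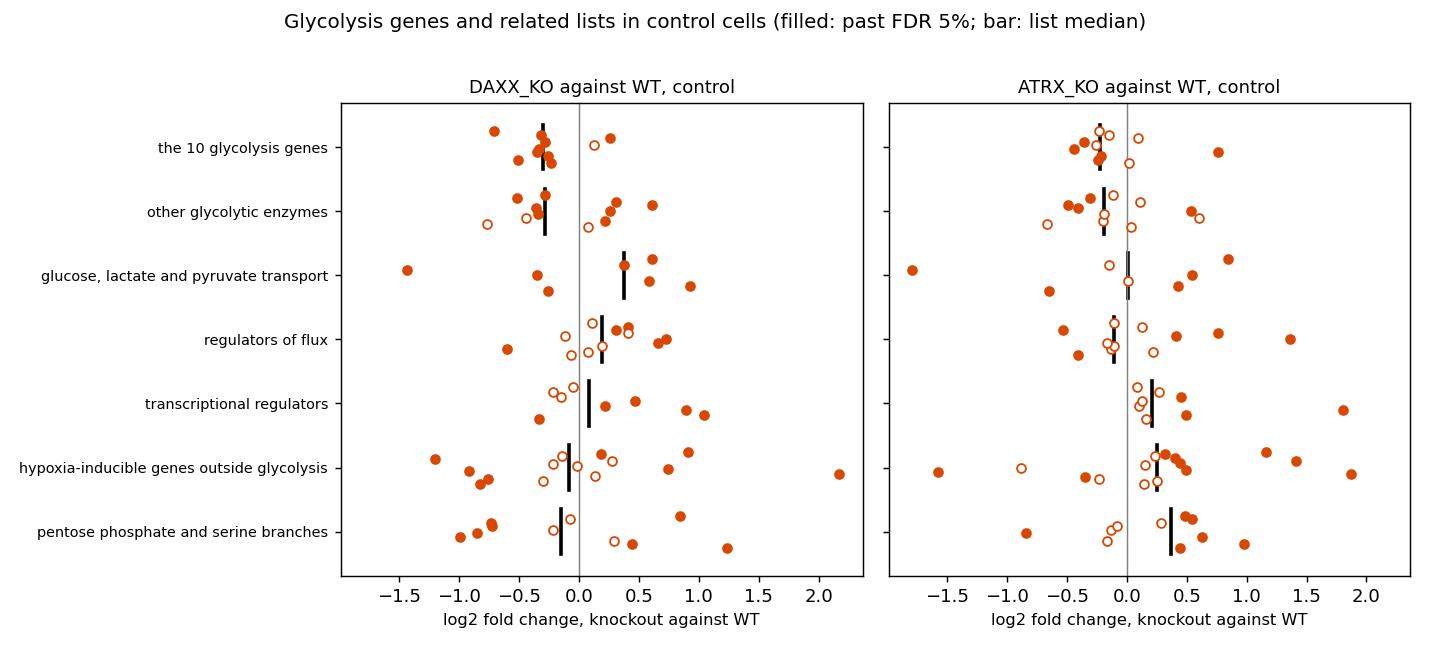
Log2 difference of knockout from WT in untreated cells (horizontal axis) for the 10 glycolysis genes and 6 related lists, with a point for each tested gene (filled when past an FDR of 5%) and a bar at the list median. The medians of the 10 glycolysis genes (−0.30 and −0.22) and of the other glycolytic enzymes (−0.29 and −0.19) lie below 0 in both knockouts, all 8 transcriptional regulators lie above 0 in ATRX_KO, and the remaining lists have points on both sides of 0 in both knockouts.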

How the data were processed

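RNA of 24 samples was measured with the QuantSeq 3′ mRNA kit and single-end reads of 75 bases. The authors aligned reads to hg19 with STAR and used RSEM with Ensembl genes to estimate expected counts, and the deposited counts are whole numbers with no normalization. Symbols came from GENCODE 44 on build 37 (55501 of 57736 gene IDs). Pseudogene and overlapping-gene counts were taken from the same table.

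The counts were tested in R 4.3.3 with edgeR 4.0.16. Genes were kept by filterByExpr (minimum count 10, total 15), which left 15247 in the DAXX series, 16371 in the ATRX series and 16674 over all 24 libraries. Libraries were scaled by TMM, and each series of 12 libraries had its own quasi-likelihood model of 4 groups, without a replicate block. The common biological coefficient of variation was 0.0825 and 0.106. Knockout effects were compared in a model of 8 groups. Benjamini-Hochberg adjustment of p-values ran over all genes tested, and genes were called at 5%. The SE is the absolute log2 fold change over the square root of F. Figures were drawn with matplotlib 3.10.9.

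The 10 genes, the related lists and the tests were chosen with earlier results of these data known. All 10 genes are named, as are the genes of the related lists with the largest changes past the threshold (up to 2 in each direction), TIGAR, PFKFB3, HIF1A and MYC, and the genes closest in pattern. Some genes that this rule names are not reported here. Some genes of the lists (TXNIP, SCO2 and the marker PECAM1) had no matched ID and are not analysed here. Alternatives were RLE size factors, library totals alone, no filter or at least 10 counts in every library, the DESeq2 1.42.0 Wald test, a replicate block, counts summed with processed pseudogenes, only the compared groups, all libraries in 1 model, and leaving out each library. Protein sequences were not used here.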

Additional observations from a re-analysis of the deposited data

Results flagged for a closer look

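These genes stand out because a test of a difference between effects passed 5% in edgeR's quasi-likelihood test, adjusted after Benjamini and Hochberg. Values are differences on the log2 scale with their SE, and no explanation for them was tested.

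The response to etoposide differed between DAXX_KO and WT for HK2 (1.05, SE 0.15, adjusted p = 7.14e-05), PFKP (0.68, SE 0.10, adjusted p = 1.86e-04) and SLC2A1 (−0.56, SE 0.15, adjusted p = 0.0165). It differed between ATRX_KO and WT for ENO1 (−0.37, SE 0.10, adjusted p = 0.0182). HK2 and PFKP passed in every fit that left out 1 library. SLC2A1 did not pass without DAXX_KO control replicate 3 (−0.42, adjusted p = 0.0569). ENO1 did not pass when any WT library with etoposide of the ATRX series was left out (−0.34 to −0.35, adjusted p = 0.0574 to 0.0686). Over all genes, 8.38% passed with an interaction above 0 and 5.79% below 0 in the DAXX series, and 8.36% and 7.64% in the ATRX series.

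In untreated cells the effect of DAXX_KO differed from that of ATRX_KO for HK2 (−1.11, SE 0.18), SLC2A1 (−0.48, SE 0.16), ENO1 (−0.27, SE 0.09) and ALDOA (−0.25, SE 0.10), where 17.2% of all genes passed below 0 and 17.0% above. With library totals alone SLC2A1 (−0.35), ENO1 (−0.15) and ALDOA (−0.12) did not pass, and PGK1 (0.29) and PDK1 (0.50) passed above 0. For HK2 the knockouts lay on opposite sides of WT, but the lower value in DAXX_KO did not pass with library totals alone (−0.16, adjusted p = 0.204). With etoposide the effects differed for PFKP (0.82, SE 0.12), SLC2A1 (−0.71, SE 0.16), PDK1 (0.63, SE 0.18), PGK1 (0.46, SE 0.11), PKM (−0.31, SE 0.09) and ALDOA (−0.29, SE 0.10), where 16.8% of all genes passed below 0 and 17.7% above. For PFKP, DAXX_KO was above its WT and ATRX_KO below its own. Each series is a separate set of libraries, so a difference between the series and a difference between the knockouts cannot be told apart beyond what each WT group takes up.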

How the results depend on the processing

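No called gene changed its direction under any alternative or in any fit that left out 1 library. Apart from single libraries, 970 of 1020 values of the 10 genes kept their side of the threshold, 30 lost it and 20 gained it, and 13 of the losses came with library totals alone. That scaling gave 5 genes in place of 9 for untreated DAXX_KO against WT and 6 in place of 3 for the DAXX interaction. It moved the median of all genes by 0.18 and −0.11 there, by −0.11 for etoposide in DAXX_KO and by 0.12 for the untreated difference between knockouts. It also took the share of calls that were higher from 50.1% to 60.2% for ATRX_KO with etoposide and from 49.7% to 62.7% for the untreated difference. With no filter on low counts the ATRX interaction count was 2 in place of 1, since LDHA passed as well. Leaving out single libraries gave 9 genes throughout for untreated DAXX_KO, 9 to 10 for DAXX_KO with etoposide, 8 to 9 and 5 for etoposide in WT and DAXX_KO, 3 to 4 for the DAXX interaction, 3 to 6 and 5 to 8 for ATRX_KO untreated and with etoposide, 6 to 8 and 5 to 7 for etoposide in WT and ATRX_KO, 0 to 2 for the ATRX interaction, and 1 to 5 and 5 to 6 for the differences between knockouts. The 0 came without any of the WT libraries with etoposide, and the 2 without ATRX_KO control or etoposide replicate 1. Replicate numbers did not pair the libraries. The correlation of deviations between same-numbered libraries ran from −0.235 to 0.14 in the DAXX series and from −0.599 to 0.218 in the ATRX series, and 0 libraries correlated best with their own number in every group. With a replicate block no count moved by over 1.5 times, and 4 calls were lost, GAPDH in untreated ATRX_KO (−0.21, adjusted p = 0.0583), ENO1 for etoposide in the WT group of that series (−0.18, adjusted p = 0.0517), SLC2A1 with etoposide in ATRX_KO (0.28, adjusted p = 0.0613) and ALDOA in the untreated difference (−0.25, adjusted p = 0.0563). Beyond what the alternatives' construction shows, the cause of these changes was not tested. PDK1 and HK2 had the fewest counts of the 10 genes, down to 64 and 122 in a library, which limits their precision.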
